A study of Mus musculus with 6 samples.

Results

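A set of 10 genes of the amino acid and endoplasmic reticulum (ER) stress responses were followed in mouse embryonic stem cells with the Activin/Nodal pathway inhibited, stimulated or left alone. They were taken from a list of symbols, and every probe set annotated to 1 of them was kept, which gave 21 probe sets of 45037 tested and 10 genes of 18193. The cells were of the mouse embryonic stem cell line E14Tg2a. Every group, control included, grew in defined N2B27 medium that held 20 ng/ml BMP4 and 1000 U/ml LIF, a cytokine that maintains self-renewal. Cells received SB431542, an inhibitor of the type I receptor kinases for activin and Nodal, at 5 µM for 24 h. Others received activin, a ligand that signals through Smad2/3, at 10 ng/ml for 2 h, and control cells were untreated, with no vehicle stated. Each group had 2 arrays, whose separate origin the labels do not state, so every p-value below reflects array-to-array spread, which may be technical.

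The genes belong to connected circuits. Kinases that sense uncharged tRNA, misfolded protein in the ER or other stresses phosphorylate the initiation factor eIF2alpha, which lowers general translation but raises translation of the mRNA of Atf4, a bZIP transcription factor. Atf4 then induces genes for amino acid synthesis and uptake, together with Ddit3 (also called Chop), Trib3 and Chac1, while the ER chaperone Hspa5 (BiP) is induced mainly through the other arms of the unfolded protein response, by Atf6 and Xbp1. Because much of this control is on translation and protein, arrays of RNA see only its transcriptional part.

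Short elements that these factors are known to bind can be read in the promoters of 3 members, which are shown because they hold elements of both the Atf4 branch and the ER branch. The sequences are the 250 bases before the annotated start, from RefSeq on build GRCm38.p6, written 5′ to 3′ on the gene's strand, and all 10 members matched a promoter entry. Capitals mark matches, on either strand, to TGATGNAA, the core of the C/EBP-ATF response element, to TGACGNAA, a related ATF core, or to the ER stress response element, in which CCAAT is followed after a spacer by CCACG.
Chac1, chr2:119350992-119351241, plus strand: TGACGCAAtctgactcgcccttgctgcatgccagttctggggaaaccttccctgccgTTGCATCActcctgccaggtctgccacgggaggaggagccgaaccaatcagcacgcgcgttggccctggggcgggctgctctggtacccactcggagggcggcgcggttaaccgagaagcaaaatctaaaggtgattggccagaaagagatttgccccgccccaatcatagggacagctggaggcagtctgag
Asns, chr6:7693210-7693459, minus strand: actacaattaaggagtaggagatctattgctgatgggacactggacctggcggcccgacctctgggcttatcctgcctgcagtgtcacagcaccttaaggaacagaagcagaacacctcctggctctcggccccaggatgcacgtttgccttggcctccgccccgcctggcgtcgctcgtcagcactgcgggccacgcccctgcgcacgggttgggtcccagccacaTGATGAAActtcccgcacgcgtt
Hspa5, chr2:34771840-34772089, plus strand: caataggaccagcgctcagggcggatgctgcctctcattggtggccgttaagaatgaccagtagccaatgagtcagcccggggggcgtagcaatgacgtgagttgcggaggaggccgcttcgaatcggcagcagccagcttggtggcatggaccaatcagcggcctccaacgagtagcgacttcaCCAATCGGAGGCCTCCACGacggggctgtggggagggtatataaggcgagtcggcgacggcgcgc
Chac1 held TGACGCAA at its far end, from 250 to 243 bases before the start, and TTGCATCA, the core read on the opposite strand, from 193 to 186 bases before it. Asns held TGATGAAA from 23 to 16 bases before its start, and Hspa5 held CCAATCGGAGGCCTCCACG from 65 to 47 bases before its start. Of all 32851 promoter windows of this length, 3.45% held TGATGNAA, 1.39% held TGACGNAA and 0.113% held the ER stress element. The 3 searched motifs had no match in the windows of the other 7 members, which says only that these letters are not in those windows, and TGACGNAA was added after the sequences were seen.

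A change was tested with limma on log2 intensity, with p-values adjusted over all probe sets and a threshold of 0.05. At limma's default settings 0 of the 21 member probe sets passed in any comparison, and 8 had an unadjusted p under 0.05 for SB431542 against control (13% of all probe sets did), 6 for activin against control (6.21%) and 4 for activin against SB431542 (9.04%). Over all probe sets the default test called 0.0155% for SB431542 against control, 0% for activin against control and 0.02% for activin against SB431542, so it had few calls to give. In a second limma fit the prior variance followed intensity and was estimated robustly, and this fit is called the intensity trend. In it 8 member probe sets passed for SB431542, 2 for activin and 1 between the treatments, against 2242, 97 and 1024 of all 45037 probe sets. The default fit is the main test and the intensity trend an alternative to it. "Rose", "fell" and "passed" refer below to the intensity trend unless the default is named. The default adjusted p stands beside the intensity trend value for the main members. Every SE is that of the default fit, also where only an intensity trend adjusted p is given.

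The SB431542 arrays were set against control first, which asks which of these transcripts differ once any endogenous Activin/Nodal signal has been blocked for a day. The transcription factor Atf4, Ddit3, Trib3 and the glutamine and alanine transporter Slc38a2 were higher, by 1.33-fold to 1.58-fold on their brightest probe sets. The chaperone Hspa5, the biosynthetic enzymes Asns and Psat1 and the stress-induced Sesn2 were within 0.14 log2 units of control on their brightest probe sets. In all, 7 of 21 member probe sets rose, against 3.38% of all probe sets, and 1 fell, against 1.6%. The members are bright, with 18 of the 21 at a mean log2 intensity of at least 8, and among the 10655 probe sets that bright 10.2% rose and 3.68% fell. Of those 18 members, 7 rose and 0 fell. Probe sets of 1 gene read the same RNA, so these counts are not counts of separate genes. By the brightest probe set of each gene, 4 of the 10 rose and 0 fell. Of all genes 4.25% rose and 2.23% fell, and of those with a mean log2 of at least 8, 9.06% and 4.02%.

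**Figure D1:**
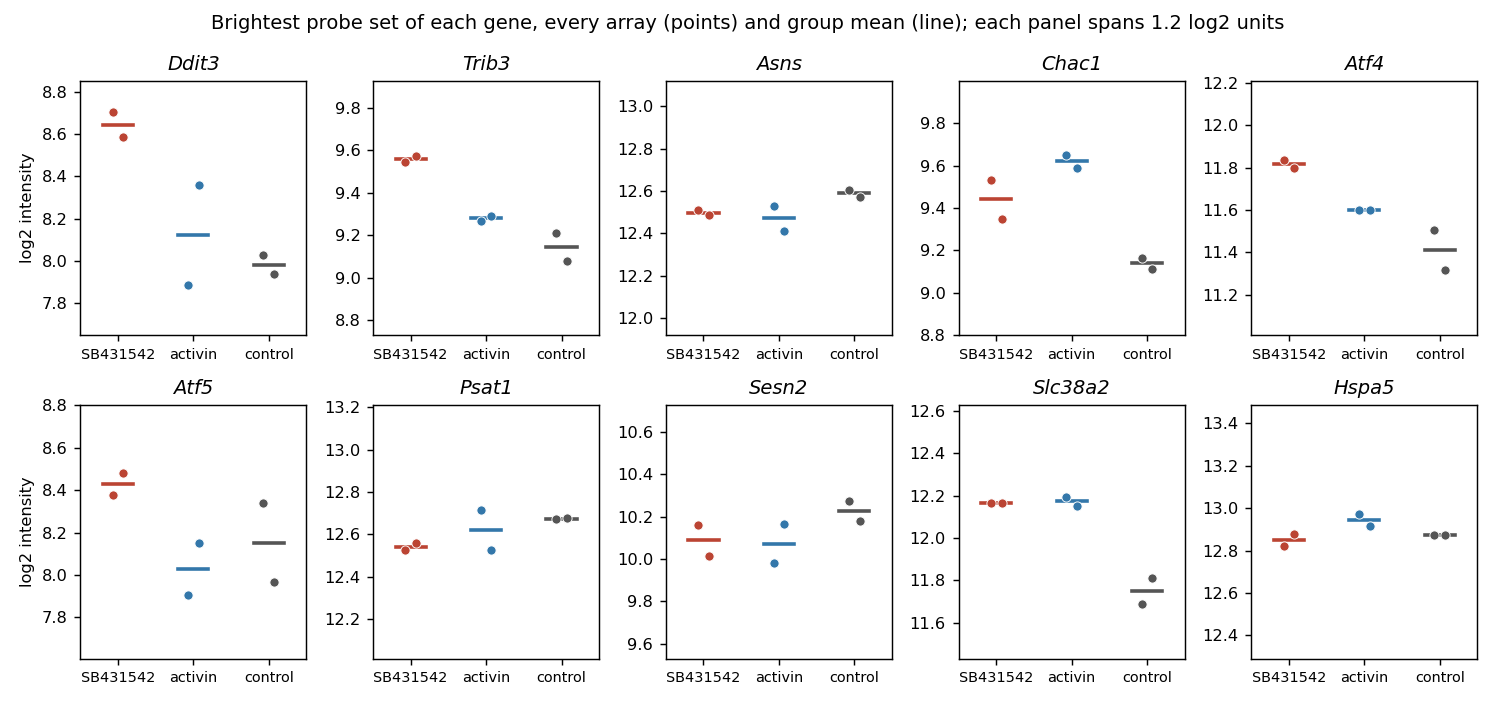
Log2 intensity (y axis) of the brightest probe set of each of the 10 genes on every array, with points for arrays and lines for group means of SB431542, activin and control cells (2 arrays each). Both SB431542 points lie above both control points for Ddit3, Trib3, Chac1, Atf4, Atf5 and Slc38a2, and below them for Asns, Psat1 and Sesn2.

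Atf4, the central transcription factor of the group, was measured by 3 probe sets that disagreed. The brightest, 1448135_at, had intensities of 3652 and 3565 after SB431542, 3101 and 3103 after activin, and 2904 and 2550 in control. All 4 treated values lay above both controls, and the 2 treatments did not overlap. Its log2 mean was 11.82 ± 0.02 after SB431542 and 11.41 ± 0.13 in control (SD, n = 2 each), a difference of 0.41 (SE 0.13, limma default adjusted p = 0.314, intensity trend adjusted p = 0.000998). Activin differed from control by 0.19 (SE 0.13), which did not pass (intensity trend adjusted p = 0.593).

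The probe set 1438992_x_at showed the largest rise of any member probe set. It read 2351 and 2114 after SB431542, 1311 and 1532 after activin, and 979 and 857 in control, so that the 3 groups did not overlap. The log2 difference from control was 1.28 for SB431542 (SE 0.15, 2.43-fold, limma default adjusted p = 0.139) and 0.63 for activin (SE 0.15, 1.55-fold, limma default adjusted p = 0.789). It rose in both by the intensity trend (adjusted p = 1.41e-11 and 0.000691), and in the comparison with SB431542 the activin arrays were lower, at a log2 difference of −0.65 (intensity trend adjusted p = 4.56e-05). The activin rise was lost without activin replicate 2 (intensity trend adjusted p = 0.0861). An _x_at suffix marks a probe set in which some probes also match other transcripts. Among probe sets with a mean log2 of at least 8, 19.8% of the 914 with that suffix rose after SB431542, against 8.76% of the 6668 with a plain suffix. For activin these shares were 2.74% and 0.270%. The part of cross-matching probes in the Atf4 value was not tested.

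The third Atf4 probe set, 1439258_at, went the other way. It read 55 and 54 after SB431542, 68 and 85 after activin, and 109 and 116 in control. Again the 3 groups did not overlap, but in the reverse order, with a log2 difference from control of −1.04 for SB431542 (SE 0.15, limma default adjusted p = 0.165) and −0.56 for activin (SE 0.15). It fell after SB431542 by the intensity trend (adjusted p = 0.0104), a call lost without control replicate 2 (0.0693), SB431542 replicate 1 (0.0863) or SB431542 replicate 2 (0.0913). All 6 of its values were above 34, the highest reading of 27 probe sets for unspiked bacterial transcripts, which describe background. Between its 2 bright probe sets alone, Atf4 had changes 0.88 log2 units apart after SB431542. Of 2269 genes with several probe sets that bright, 2.38% had a spread at least as wide, and the median was 0.22. The direction of Atf4 thus rests on which of its probe sets is read, with the 2 bright ones higher after SB431542 and the dim 1439258_at lower.

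**Figure D2:**
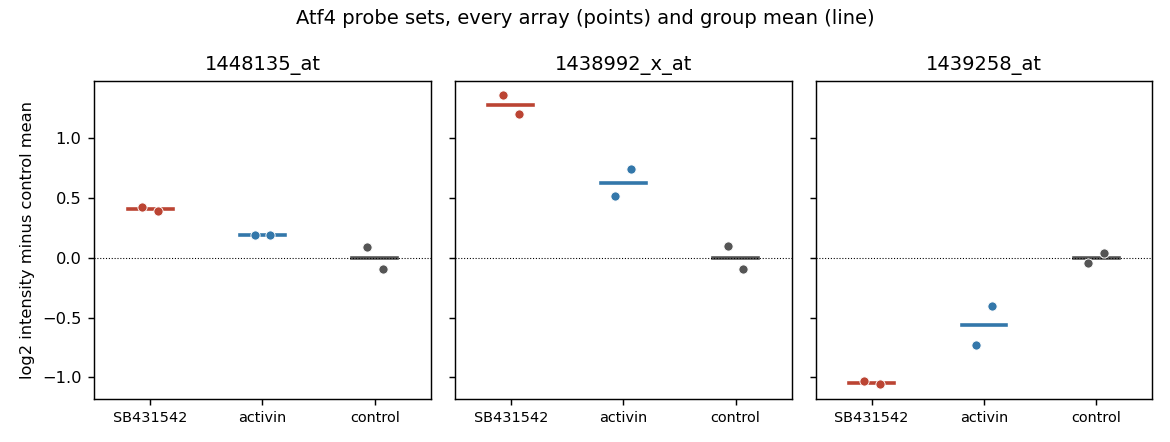
Log2 intensity minus the control mean (y axis) of the 3 Atf4 probe sets on each array, with points for arrays and lines for group means (2 arrays each). The groups are stacked SB431542, activin, control from high to low on 1448135_at and 1438992_x_at, and from low to high on 1439258_at.

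Atf5, a bZIP factor related to Atf4 and controlled in a similar way at translation, had 1 probe set. It read 333 and 357 after SB431542, 240 and 284 after activin, and 324 and 250 in control. The SB431542 values lay just above the higher control, while the activin values overlapped the controls, whose SD was 0.26 log2 units. The differences from control were 0.28 for SB431542 and −0.12 for activin (SE 0.18 each), and neither passed (intensity trend adjusted p = 0.366 and 0.936). The SB431542 value was 0.46 without control replicate 1 and 0.09 without control replicate 2, and the activin value was 0.06 without control replicate 1.

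Ddit3, a bZIP protein induced late in ER stress and linked to cell death, read 417 and 384 after SB431542, 237 and 328 after activin, and 261 and 245 in control on its brighter probe set, 1417516_at. Both SB431542 arrays were above every other array, and the activin arrays fell on both sides of the controls. It rose by 0.66 on the log2 scale after SB431542 (SE 0.19, 1.58-fold, limma default adjusted p = 0.287, intensity trend adjusted p = 0.0043), a call lost without SB431542 replicate 1 (0.0924). After activin it differed from control by 0.14 (SE 0.19), with an SD of 0.33 between the 2 activin arrays, and by −0.09 without activin replicate 2. A second probe set, 1443897_at, read 43 and 38, 37 and 37, and 26 and 31 in SB431542, activin and control cells, close to the background of up to 34, so no fold is drawn from it. In the RefSeq annotation the extents of Mbd6 and of Mars1, the methionyl-tRNA synthetase gene, overlap the ends of Ddit3. Those neighbours differed from control by 0.13 and 0.16 after SB431542 and did not pass.

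Trib3, a pseudokinase that Ddit3 and Atf4 induce and that restrains Atf4 in turn, had 2 probe sets that moved alike. On 1456225_x_at it read 747 and 763 after SB431542, 617 and 627 after activin, and 592 and 540 in control. On 1426065_a_at it read 699 and 709 after SB431542, 579 and 626 after activin, and 452 and 481 in control. On both probe sets the groups were stacked SB431542, activin, control with no overlap. Trib3 rose after SB431542 by 0.42 on the log2 scale on 1456225_x_at (SE 0.12, limma default adjusted p = 0.295, intensity trend adjusted p = 0.0209) and by 0.59 on 1426065_a_at (SE 0.12, limma default adjusted p = 0.218, intensity trend adjusted p = 0.000775). The call on 1456225_x_at was lost without control replicate 2 (intensity trend adjusted p = 0.105), SB431542 replicate 1 (0.175) or SB431542 replicate 2 (0.221). The activin differences were 0.14 and 0.37 and did not pass (intensity trend adjusted p = 0.888 and 0.295).

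Chac1, a glutathione-degrading enzyme of the Atf4 and Ddit3 branch and the member with matches to both ATF-type cores, differed from control by more after activin than after SB431542. Its only probe set read 740 and 652 after SB431542, 802 and 771 after activin, and 574 and 553 in control. All 4 treated arrays were above both controls. The difference from control was 0.48 for activin (SE 0.13, 1.40-fold, limma default adjusted p = 0.789) and 0.30 for SB431542 (SE 0.13, 1.23-fold, limma default adjusted p = 0.406). Neither passed with the intensity trend, where the activin value came near the threshold (adjusted p = 0.0580 for activin and 0.130 for SB431542).

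Slc38a2, the SNAT2 transporter that imports small neutral amino acids and is induced when they are scarce, was higher after both treatments. Its brightest probe set, 1426722_at, read 4591 and 4587 after SB431542, 4686 and 4550 after activin, and 3298 and 3598 in control. The 4 treated values lay within a narrow range, all above both controls. It rose by 0.41 on the log2 scale after SB431542 (SE 0.12, 1.33-fold, limma default adjusted p = 0.295, intensity trend adjusted p = 0.000274) and by 0.42 after activin (SE 0.12, 1.34-fold, limma default adjusted p = 0.789, intensity trend adjusted p = 0.0022). The 2 comparisons share their control arrays. The dimmer probe set 1429593_at read 521 and 414, 539 and 506, and 446 and 456 in SB431542, activin and control cells, with differences from control of 0.04 and 0.21 that did not pass. The dimmest, 1429594_at, read 51 and 41, 59 and 66, and 66 and 56, with differences of −0.41 and 0.04. The rise of Slc38a2 was thus seen on 1 of its 3 probe sets, and the mean of the 3 gave 0.02 for SB431542 and 0.22 for activin.

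Asns, asparagine synthetase, carries a C/EBP-ATF core near its start and is a standard readout of amino acid shortage. It was bright in every group, with 5837 and 5732 after SB431542, 5903 and 5452 after activin, and 6233 and 6090 in control on 1451095_at. All 4 treated values lay a little below both controls, with differences of −0.09 for SB431542 (95% confidence interval −0.39 to 0.21) and −0.12 for activin (−0.42 to 0.18) in the default fit. On 1433966_x_at the treated values lay a little above control instead, with 5322 and 5318 after SB431542, 5162 and 4869 after activin, and 4679 and 4805 in control. Those differences were 0.17 and 0.08, and no Asns value passed (smallest intensity trend adjusted p = 0.209).

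Psat1, the aminotransferase of serine synthesis, had the same kind of split. On 1451064_a_at it read 5889 and 6035 after SB431542, 6731 and 5890 after activin, and 6520 and 6557 in control. On 1454607_s_at it read 4544 and 4510 after SB431542, 3877 and 4316 after activin, and 3570 and 3746 in control. The SB431542 values were under both controls on the first and over both on the second, with differences of −0.13 (SE 0.13) and 0.31 (SE 0.12). Only the second rose (limma default adjusted p = 0.389, intensity trend adjusted p = 0.0099; lost without control replicate 1 at 0.0520, SB431542 replicate 1 at 0.146 or SB431542 replicate 2 at 0.105), and the activin differences of −0.05 and 0.16 did not pass. A suffix _s_at marks probes shared by several transcripts, and 11.8% of the 950 bright probe sets with it rose after SB431542.

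Sesn2, a stress-induced inhibitor of the growth kinase mTORC1, gave no difference that passed. On 1451599_at it read 1145 and 1035 after SB431542, 1009 and 1146 after activin, and 1236 and 1159 in control, just under the controls on every treated array. On 1425139_at it read 801 and 626 after SB431542, 699 and 719 after activin, and 667 and 756 in control, with full overlap. The differences from control were −0.14 and −0.15 on the first probe set and −0.00 for both treatments on the second. In the default fit the 95% confidence interval on the first was −0.48 to 0.20 for SB431542 and −0.50 to 0.19 for activin.

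Hspa5, the main ER chaperone of the Hsp70 family, is the member with an exact ER stress element. On 1416064_a_at it read 7237 and 7519 after SB431542, 8032 and 7715 after activin, and 7507 and 7512 in control. The SB431542 arrays fell on both sides of the controls, and the activin arrays lay just above them. The difference was −0.03 for SB431542 (95% confidence interval −0.32 to 0.26) and 0.07 for activin (−0.22 to 0.36) in the default fit. Its probe sets 1427464_s_at and 1447824_x_at gave 0.14 and 0.05 after SB431542 and 0.09 and 0.06 after activin. None of the 6 values passed, the smallest intensity trend adjusted p being 0.379.

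**Figure D3:**
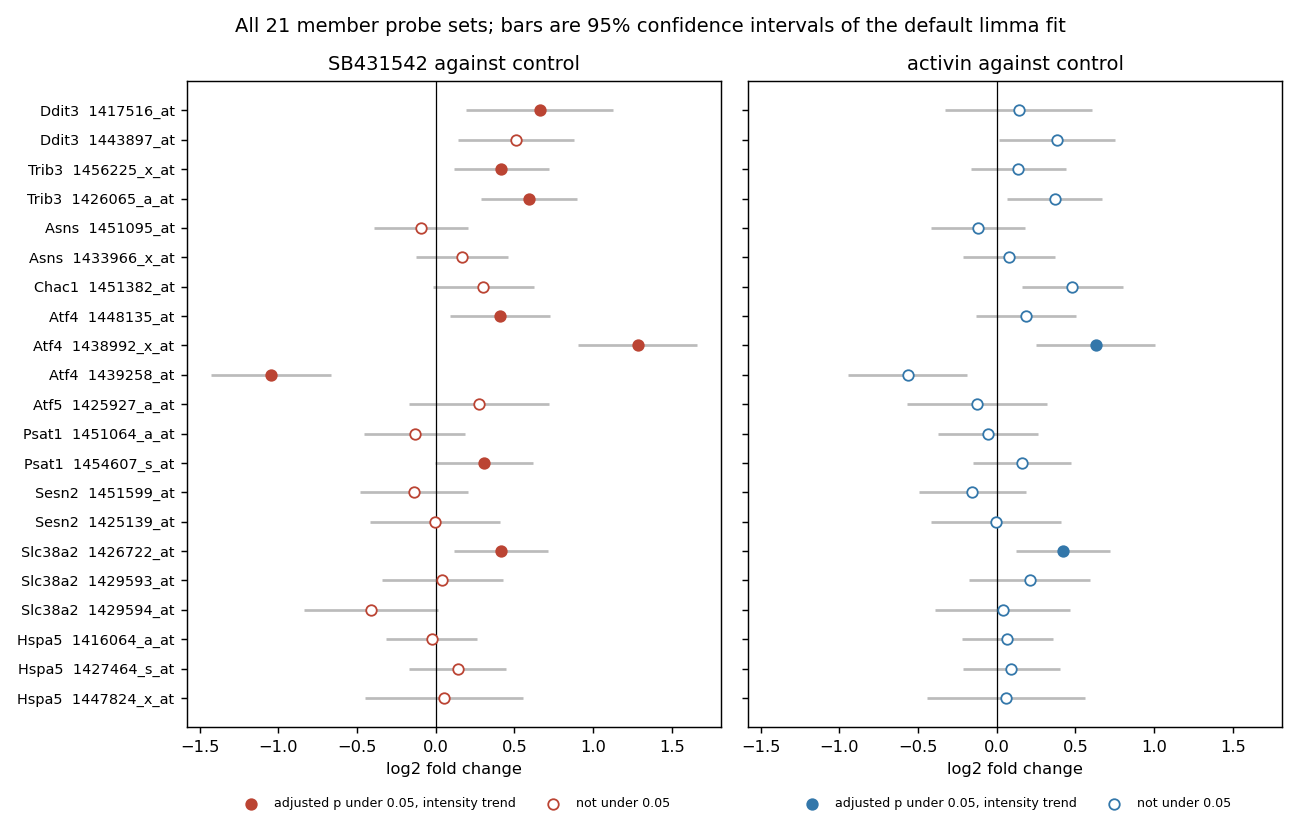
Log2 fold change (x axis) of all 21 member probe sets in SB431542 and in activin cells against control, with 95% confidence intervals of the default limma fit and filled points where the intensity trend adjusted p was under 0.05. In the SB431542 panel 7 filled points lie right of 0 and 1 left of it, and in the activin panel 2 lie right of 0.

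Read without a test, by overlap of the groups, 12 of the 21 probe sets had both SB431542 arrays above both controls, against 20.6% of all probe sets, and 5 had both below, against 22.1%. Of the 18 bright members 11 were above, against 36.1% of bright probe sets, and 3 below, against 23.9%. For activin 11 of the 21 had both arrays above both controls, against 14.7% of all probe sets, and 3 had both below, against 14.5%. Of the 18 bright members 10 were above, against 17.5%, and 2 below, against 18.2%. The median log2 change of the 21 was 0.17 after SB431542 and 0.09 after activin, against −0.03 and −0.00 over all probe sets. By the brightest probe set of each gene the medians of the 10 members were 0.29 and 0.10. Over all genes with a mean log2 of at least 8 they were 0.03 and −0.02. The counts for both treatments use the same 2 control arrays.

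In activin cells, which asks for an early response within hours of ligand, the members that rose were Slc38a2 and the Atf4 probe set 1438992_x_at, 2 of 21, against 0.195% of all probe sets. Both are among the 18 bright members, against 0.685% of bright probe sets. None of the 21 fell, against 0.02% of all probe sets, and none of the 18, against 0.0282%. Chac1, at 1.40-fold, came next and did not pass.

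The treatments were then compared directly, at 2 h for activin and 24 h for SB431542, so that ligand and inhibitor differ in duration too. The Atf4 probe set 1438992_x_at was the only member probe set that passed, being lower after activin, 1 of 21 against 1.47% of all probe sets, and none was higher, against 0.802%. Of the 18 bright members 1 was lower, against 4.36%, and 0 higher, against 1.72%. Ddit3 had a log2 difference of −0.52 (SE 0.19, limma default adjusted p = 0.515), with 237 and 328 in activin cells and 417 and 384 in SB431542 cells, and did not pass with the intensity trend (adjusted p = 0.0569). It passed in 3 of 6 intensity trend fits that left out 1 array, namely control replicate 1 (0.0253), control replicate 2 (0.0261) or activin replicate 2 (0.0092), and was −0.29 without activin replicate 1. Trib3 stood at −0.28 and −0.23 on its 2 probe sets and Atf5 at −0.40, with no overlap of the arrays. Slc38a2 differed by 0.01 on its brightest probe set (default 95% confidence interval −0.29 to 0.31) and Chac1 by 0.18 (−0.14 to 0.50). By non-overlap 9 of the 21 were lower after activin, against 18.2% of all probe sets, and 4 were higher, against 18.7%. Of the 18 bright members 8 were lower, against 35.8%, and 2 higher, against 20%.

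Other genes of these circuits were read from 6 lists, with the brightest probe set for each gene. None of their genes passed the default test in any comparison. Among 19 other Atf4 and stress-induced genes 6 rose after SB431542 and 0 fell, with a median log2 change of 0.22, against a median of −0.00 over all 18193 genes. Of all genes 4.25% rose and 2.23% fell, and of the 6493 with a mean log2 of at least 8, 9.06% rose and 4.02% fell. Atf3, a stress-induced bZIP repressor, read 259 and 275 after SB431542, 151 and 180 after activin, and 131 and 108 in control, and rose 2.24-fold after SB431542 (limma default adjusted p = 0.162, intensity trend adjusted p = 2.19e-05). Jdp2, a Jun-dimerizing bZIP protein, read 390 and 392 after SB431542, 222 and 213 after activin, and 210 and 204 in control. Cebpb, a C/EBP factor that pairs with Atf4, read 871 and 822, 511 and 474, and 459 and 440 in the same order. Both rose after SB431542, by 0.92 and 0.91 on the log2 scale (SE 0.12 each, intensity trend adjusted p = 4.42e-05 and 8.58e-07), and in both the activin arrays stood close to control. Cebpg, another partner of Atf4, rose by 0.48, Nupr1, a small stress-induced chromatin protein, by 0.54, and Vegfa, a growth factor that Atf4 and hypoxia induce, by 0.80. The stress-induced gene Ddit4, an mTORC1 inhibitor, was at −0.12 and the pro-apoptotic Bbc3 at −0.32, and neither passed.

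The amino acid lists showed no common direction. Of 12 synthesis enzymes 1 rose and 1 fell after SB431542 (8.33% each), with a median of −0.10. The shares were 4.25% and 2.23% of all genes, and 9.06% and 4.02% of those with a mean log2 of at least 8. Phgdh, the enzyme that starts serine synthesis, rose by 0.33 (SE 0.13, intensity trend adjusted p = 0.0178), and Mthfd2, a mitochondrial folate enzyme, was at 0.28 and did not pass. Cth, which makes cysteine from cystathionine, read 1264 and 1464 after SB431542, 2540 and 2226 after activin, and 2383 and 2193 in control. It fell by 0.75 on the log2 scale (SE 0.15, limma default adjusted p = 0.209, intensity trend adjusted p = 6.68e-07). Of 11 amino acid transporters 0 passed in either comparison with control, with medians of −0.04 after SB431542 and −0.05 after activin. The glycine transporter Slc6a9 was at 0.51, Slc43a1 at −0.47, and neither passed. Slc7a11, the cystine carrier and a known Atf4 target, read 16 and 16 after SB431542, 14 and 18 after activin, and 19 and 21 in control, within background, so no difference is drawn from it. Of 19 aminoacyl-tRNA synthetases Iars rose, by 0.32 (SE 0.12, intensity trend adjusted p = 0.0103), with a median of −0.05 for the list, while Yars was at −0.24 and Farsa at −0.26. That 1 rise is 5.26% of the list, against 4.25% of all genes and 9.06% of those with a mean log2 of at least 8.

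The ER lists together held calls in both directions after SB431542. Of 20 genes for eIF2alpha kinases, eIF2 subunits and sensors of the unfolded protein response, Mbtps2, a protease that activates Atf6, rose after SB431542 by 0.44 (intensity trend adjusted p = 0.0089), and 0 fell. The 1 rise is 5% of that list, against 4.25% of all genes and 9.06% of those with a mean log2 of at least 8. In the list 15 genes were above control and 5 below, with a median of 0.11. Of all genes 49.3% were above control, and of the bright ones 56.0%, with a median of 0.03. The kinase gene Eif2ak3 (Perk) was at 0.13, Ern1 (Ire1alpha) at 0.32, Xbp1 at −0.12 and Eif2b5 at −0.26, none past the threshold. Of 27 chaperone and ER-associated degradation genes 3 rose and 2 fell (11.1% and 7.41%), with a median of 0.05. The shares were 4.25% and 2.23% of all genes, and 9.06% and 4.02% of bright genes. Sel1l, an adaptor of the degradation complex, rose by 0.68 (SE 0.13, intensity trend adjusted p = 0.000461), Hspa13 by 0.48 and Derl1 by 0.46, while Edem1 fell by 0.41 and Manf by 0.33. Hsp90b1 (Grp94) was at 0.12 and Derl3 at −0.45, and did not pass.

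**Figure D4:**
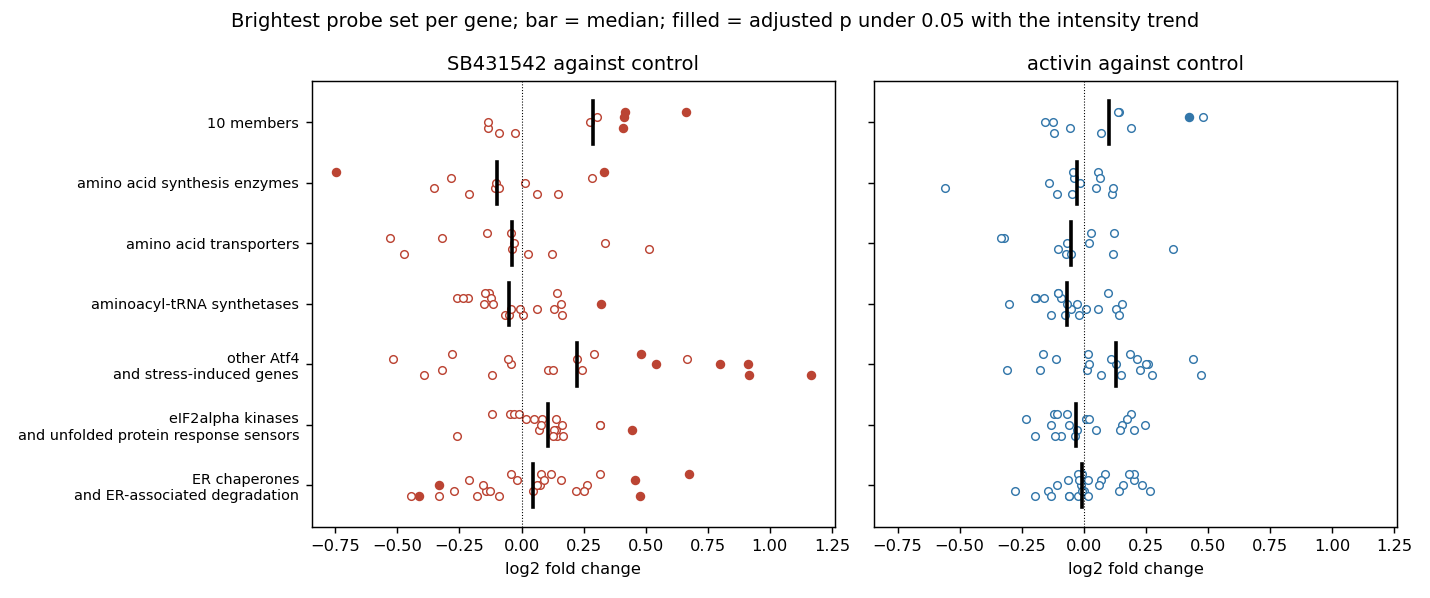
Log2 fold change (x axis) of the brightest probe set of each gene against control, for the 10 members and 6 other lists, with bars at the list medians and filled points where the intensity trend adjusted p was under 0.05. After SB431542 the medians are 0.29 for the members and 0.22 for the other Atf4 and stress-induced genes, and the other 5 lie between −0.10 and 0.11.

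After activin none of these listed genes passed by either test. By the intensity trend 0.137% of all genes rose and 0.011% fell, and by default 0 passed, so few calls were to be had. The smallest p-values were those of Atf3 at 0.47, Bbc3 at −0.31 and Nupr1 at 0.26 among stress-induced genes. Slc6a9 was at 0.36 and Slc7a3 at 0.12 among transporters, with Slc7a11 within background, and Eprs at −0.30, Yars at −0.20 and Iars at 0.15 among synthetases. Aldh1l2 stood at −0.56, Mthfd1l at −0.14 and Gpt2 at 0.12 among enzymes. In the ER lists Edem2 stood at −0.28, Dnajb9 at 0.23 and Hsp90b1 at 0.20, and Atf6b at 0.20, Creb3l2 at −0.23 and Eif2b5 at −0.20. Between the treatments, activin was lower than SB431542 for Jdp2, Cebpb, Atf3, Phgdh, Sel1l and Hspa13 and higher for Cth and Stc2 by the intensity trend. In that comparison 2.12% of all genes were lower and 1.26% higher, and of bright genes 4.33% and 1.88%.

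Across the 6 arrays, the brightest probe sets of Trib3 and Atf4 followed each other most closely among the members, with a Pearson r of 0.98. Ddit3 followed Trib3 at 0.89 and Atf4 at 0.85, and Slc38a2 followed Chac1 at 0.87. On their brightest probe sets Psat1 ran opposite to Ddit3 at −0.92 and Asns opposite to Slc38a2 at −0.78. The other probe sets of Psat1 and Asns were higher than control after SB431542, by 0.31 and 0.17, where the brightest were lower. No r was computed for them, so these 2 opposite signs are given for the brightest probe sets only. Over 3591 candidates with a mean log2 of at least 7 and a range of at least 0.5, the genes most like Ddit3 were Ccni, Arl1 and Tfb1m, each at 0.99, and 160 probe sets exceeded 0.95. Those most like Asns were Tubgcp5 at 0.97, Dbr1 at 0.96 and Usp49 at 0.95. With 6 points that share groups, labelling and normalization, these values are descriptions only.

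The targets of the pathway moved with the labels. Lefty2, a Nodal antagonist induced by the pathway, read 14 and 16 after SB431542, 1348 and 1253 after activin, and 497 and 493 in control. Lefty1, Pmepa1 and Smad7 were likewise lowest after SB431542 and highest after activin on every array. All 11 markers of embryonic stem cells lay above background, and their summed intensity was 49177 to 50106 after SB431542, 56400 to 57058 after activin and 55218 to 56432 in control; 5 of the 11 fell after SB431542 and 1 rose. The summed level of 6 trophectoderm markers was 14688 to 14842 after SB431542, 8994 to 9504 after activin and 9699 to 11660 in control, and 5 of the 6 rose after SB431542. Of all genes 4.25% rose after SB431542 and 2.23% fell, and of those with a mean log2 of at least 8, 9.06% and 4.02%. The part of these marker shifts in the higher Atf4, Ddit3, Trib3 and Slc38a2 values and in those of the other stress-induced genes was not tested. In bulk RNA fewer cells of a type and less RNA per cell cannot be told apart. Of other markers 4 of 7 for extraembryonic endoderm, 5 of 8 for fibroblasts and 2 of 5 for neuroectoderm had a mean under the highest background reading. As a sign of RNA quality, the 3′ minus 5′ log2 difference of the actin control probe sets ran from 0.20 to 0.32 over the 6 arrays, and that of Gapdh from −0.14 to −0.05, lowest on the SB431542 arrays at −0.14 and −0.08. Array medians lay between 37 and 49.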

How the data were processed

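Labelled RNA of 6 samples of E14Tg2a cells was hybridised to single-colour Affymetrix mouse arrays, 2 per group, grouped by sample title (1 title spells the inhibitor SB432542). The table deposited by the authors gives each probe set's intensity as a linear whole number between 6 and 26405. Per the submitters' processing notes RMA was used, and its version and software are not stated there. RMA output is log2, so the deposited intensities were returned to a linear scale, and rounding makes dim values coarse. Column medians run from 37 to 49, so the columns as deposited do not share 1 median. With quantile normalization repeated, 40 probe sets in all passed the default test for SB431542 against control, against 7 without it.

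The intensities were put on the log2 scale without renormalizing. The 64 control probe sets were left out, leaving 45037, of which 34945 have 1 gene symbol, 932 several and 9160 none. Genes were named from the platform annotation, updated through Entrez identifiers. All arrays were fitted with 1 mean per group in limma 3.58.1 (R 4.3.3), lmFit and eBayes, with Benjamini-Hochberg adjustment over 45037 probe sets. The fit had 3 residual degrees of freedom, to which the prior brought 2.51 (default) or 34.3 (robust, following intensity). The fit was tested on simulated data. Promoters and motifs were read from RefSeq tables. The small number of arrays limits precision, and no detection calls were used.

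Named genes are all member probe sets, the 3 smallest p-values per list in each comparison with control, and the likeness genes. Genes that passed only with the intensity trend, together with Ddit4, Eif2ak3, Xbp1, Hsp90b1 after SB431542 and the neighbours of Ddit3, are additions made with their values in view. The members, lists, tests and alternatives were chosen with earlier results of these data known. The numbers in the titles gave no sign of pairing the arrays. Over the 45037 probe sets the correlations of same-numbered deviations were 0.02 for SB431542 with control, −0.14 for activin with control and −0.09 for activin with SB431542. Many of these probe sets are dim, with coarsely rounded values, so a pairing is not excluded.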

Additional observations from a re-analysis of the deposited data

How the results depend on the processing

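The count of 0 member probe sets passing held after removal of the dimmest 40% of probe sets, and with quantile normalization repeated, a pseudocount of 16, only the 4 arrays compared, the replicate block (0 called in each comparison) and, chosen after seeing the data, the crossed replicate block (0 called). It also held leaving out each array at default settings. It changed with the intensity trend, to 8 for SB431542 against control, 2 for activin against control and 1 for activin against SB431542. Over all 45037 probe sets that fit called 2242, 97 and 1024 in the same order. With columns shifted to 1 median the count of members changed to 2 (1 higher and 1 lower) for SB431542 against control. That shift also brought the calls over all 45037 probe sets to 791, against 7 at default settings. The cause was not tested. Leaving out each array with the intensity trend gave 4 to 8 calls for SB431542 against control (7 and 6 without control replicate 1 or 2, 4 and 5 without SB431542 replicate 1 or 2), 1 to 2 for activin against control and 1 to 2 for activin against SB431542. Over all probe sets the calls for SB431542 against control moved too, with 947 and 1217 without SB431542 replicate 1 or 2, 2089 and 1961 without control replicate 1 or 2, and 2540 and 2560 without activin replicate 1 or 2. For activin against control they ran from 21 to 201 and for activin against SB431542 from 402 to 1493. In these fits the lone array of a group is assumed to vary like the others.

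After SB431542 the calls of Slc38a2, of Atf4 on 1448135_at and 1438992_x_at and of Trib3 on 1426065_a_at passed in 6 of 6 such fits. Ddit3 was lost without SB431542 replicate 1 (adjusted p = 0.0924). Trib3 on 1456225_x_at was lost without control replicate 2 (0.105), SB431542 replicate 1 (0.175) or 2 (0.221), Atf4 on 1439258_at without the same arrays (0.0693, 0.0863 and 0.0913), and Psat1 on 1454607_s_at without control replicate 1 (0.0520), SB431542 replicate 1 (0.146) or 2 (0.105). After activin Atf4 on 1438992_x_at was lost without activin replicate 2 (0.0861), and Slc38a2 passed each time.

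Small differences changed sign. Averaging a gene's probe sets gave 0.0375 for Asns, 0.0873 for Psat1 and 0.0556 for Hspa5 after SB431542, 0.0536 for Psat1 after activin, and −0.0337 for Psat1 between the treatments. In each of these the dimmer probe sets differed in the opposite direction from the brightest. Between the treatments, repeated quantile normalization gave 0.0166 for Asns and 0.0378 for Sesn2, and shifted columns gave −0.0305 for Slc38a2. Leaving out each array, by default or with the intensity trend, gave some ranges that crossed 0. After activin these were Ddit3 (−0.0935 to 0.375), Atf5 (−0.312 to 0.0625) and Psat1 (−0.151 to 0.0419), and after SB431542 Hspa5 (−0.0533 to 0.00182). Between the treatments they were Asns (−0.0853 to 0.0293), Psat1 (−0.0174 to 0.175), Sesn2 (−0.110 to 0.0741, with 0.0551 without SB431542 replicate 1) and Slc38a2 (−0.0123 to 0.0302). The cause of the sign changes other than those from averaging was not tested.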
